A study of Mus musculus with 8 samples.

Results

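S100a1, Pcp4 and Ncs1 are 3 genes for small proteins that bind calcium or the calcium sensor calmodulin, and they are 3 of the 10987 transcripts with values in ribosome profiling and parallel RNA-seq of mouse oligodendrocyte progenitor cells (OPCs) and oligodendrocytes. They were selected by gene symbol, with their levels in both cell types already known, so their own values are given as a description without a test. The OPCs were derived from epiblast stem cells of the 129S/SvEv strain and kept in medium with bFGF and PDGFA. Oligodendrocytes were differentiated from these OPCs over 3 days in medium with thyroid hormone (T3), noggin, IGF-1, cyclic AMP and NT3. Each cell type has 2 cultures, and each culture gave 1 library of total RNA, cut by alkaline treatment, and 1 of footprints left by micrococcal nuclease (MNase), for 8 libraries. The oligodendrocyte cultures are a model with cells that remain undifferentiated, and p-values measure only the spread between 2 cultures of 1 strain.

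Calcium ions act inside cells largely through proteins with an EF-hand, a helix-loop-helix whose loop of 12 residues holds the ion. S100 proteins are small dimers with EF-hands that bind target proteins when calcium rises. S100a1 is best known from heart muscle, where it acts on calcium release and uptake of the sarcoplasmic reticulum. Ncs1 (neuronal calcium sensor 1, or frequenin) is a lipid-anchored EF-hand protein that regulates a phosphatidylinositol 4-kinase, receptor kinases and calcium channels. Pcp4 (Purkinje cell protein 4, or PEP-19) has no EF-hand. It binds calmodulin through an IQ motif and speeds the exchange of calcium on it, and it is abundant in Purkinje cells.

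The coding sequences are shown because footprints were counted over the CDS alone. These letters show that window in full for S100a1 and Pcp4 and in part for Ncs1. The letters were read 5′ to 3′ from Gencode vM21 transcripts (GRCm38), while the footprint values were tabulated on Gencode vM9. Capitals mark the EF-hand loops in S100a1 and Ncs1 and the IQ motif in Pcp4. An EF-hand loop was searched for in the translated CDS as 12 residues with aspartate at position 1, aspartate, asparagine or serine at position 3, glycine at position 6 and aspartate or glutamate at position 12. An IQ motif was searched for as isoleucine and glutamine at positions 1 and 2 with arginine or lysine at positions 6 and 11. S100a1 and Pcp4 are given as the whole CDS, and Ncs1 from codon 73 to codon 168.
S100a1: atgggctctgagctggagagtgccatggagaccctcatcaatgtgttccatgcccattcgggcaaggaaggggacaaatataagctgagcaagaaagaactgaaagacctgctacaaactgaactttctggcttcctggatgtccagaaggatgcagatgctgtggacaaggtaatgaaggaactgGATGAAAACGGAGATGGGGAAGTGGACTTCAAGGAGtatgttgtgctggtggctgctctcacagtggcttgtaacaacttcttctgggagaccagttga
Pcp4: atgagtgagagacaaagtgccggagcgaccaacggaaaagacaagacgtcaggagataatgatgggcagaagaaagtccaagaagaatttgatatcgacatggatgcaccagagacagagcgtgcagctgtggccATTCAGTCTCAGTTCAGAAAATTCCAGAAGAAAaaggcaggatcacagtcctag
Ncs1: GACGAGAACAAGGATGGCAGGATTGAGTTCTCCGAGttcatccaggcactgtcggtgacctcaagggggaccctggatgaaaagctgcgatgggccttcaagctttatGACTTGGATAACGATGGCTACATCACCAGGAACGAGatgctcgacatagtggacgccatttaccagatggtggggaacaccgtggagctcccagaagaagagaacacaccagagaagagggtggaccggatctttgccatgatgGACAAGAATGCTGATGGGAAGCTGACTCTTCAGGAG
S100a1 held 1 such loop, at codons 63 to 74, and Ncs1 held 3, at codons 73 to 84, 109 to 120 and 157 to 168. The other calcium loop of S100 proteins is longer and is not caught by these letters. Pcp4 held the IQ motif at codons 46 to 56. Of 10973 coding sequences of the series, 510 (4.65%) held the EF-hand loop and 254 (2.31%) the IQ motif.

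S100a1 (ENSMUST00000060738) lies on the minus strand of chromosome 3 at 90511034 to 90514392, with 3 exons, a transcript of 677 bases and a CDS of 285 bases. Its start lies 43 bases from that of S100a13, which runs the other way. Pcp4 (ENSMUST00000061739) lies on the plus strand of chromosome 16 at 96467606 to 96525793, with 3 exons, 641 bases and a CDS of 189 bases. Its exons overlap an annotated transcript of Igsf5 on the same strand, and 216 of the 612 words of 30 bases in Pcp4 occur in Igsf5 too, so reads there could be split between both. Ncs1 (ENSMUST00000000199) lies on the plus strand of chromosome 2 at 31245823 to 31295989, with 8 exons. Its transcript has 4653 bases, of which the CDS takes 573 and the 3′ UTR 3724. Over all transcripts the median was 2919 bases for the transcript and 1374 for the CDS without the stop codon, so S100a1 and Pcp4 are short and Ncs1 is a long transcript with a short CDS.

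Values are FPKM, fragments scaled to length and to the number of mapped reads. The length is that of the transcript in RNA-seq and of the CDS in footprints. Depth was estimated from the smallest steps between FPKM values. It was 77.9 to 241 aligned megabases (Mb) in the RNA-seq libraries and 93.0 to 249 Mb in the footprint libraries. The estimate can be off by a whole factor, and with it every number of reads, and every FPKM value of a read, given below. Oligodendrocyte culture 2 was the shallowest in both kinds, and 31.1% of transcripts were listed at 0 in its footprints against 14.7% to 20.5% in the other footprint libraries. Genes that any cell uses, such as Dpm1, can also be listed at 0, so a value of 0 is given below only as listed at 0. A set of 8 oligodendrocyte markers summed to 33.6 and 35.5 FPKM in OPC RNA-seq and to 2182 and 1836 FPKM in oligodendrocytes. In the RNA-seq tests described below, 6 of the 7 tested rose, against 13% of all transcripts. Of the 7, 3 had no group listed at 0. Of the 5 genes listed as OPC markers, 0 fell and 3 rose in RNA-seq, which were Pdgfra, Vcan and Gpr17. The sum of the 5 was 371 and 354 FPKM in OPCs but 636 and 734 FPKM in oligodendrocytes. Much of this rise was Gpr17, which went from 8.38 and 4.91 FPKM to 221 and 271 FPKM. Gpr17 thus rose with the oligodendrocyte markers, and the sum does not measure how many OPCs remained. Ptprz1 and Cspg5 were not called. Cspg4 and Mbp were not analysed here.

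S100a1 was abundant in oligodendrocytes in both kinds of library. In RNA-seq it was listed at 0 in OPC cultures 1 and 2 and stood at 69.9 and 128 FPKM in oligodendrocyte cultures 1 and 2. In footprints its level was 6.53 and 4.76 FPKM in OPCs but 316 and 517 FPKM in oligodendrocytes. OPCs thus had footprints on a transcript that was listed at 0 in their RNA-seq. In a bulk culture, more cells that express a gene and more RNA in each cell cannot be told apart. The footprint means were 5.65 ± 1.25 FPKM (SD, n = 2) in OPCs and 417 ± 142 FPKM in oligodendrocytes. The difference was 6.15 ± 0.42 (SE) on the log2(FPKM + 0.1) scale, and 5.58 and 6.73 in the first and second pair of cultures. No fold is given for RNA-seq because the OPCs were listed at 0. At the estimated depth, a read of 30 bases on S100a1 is worth 0.184 and 0.267 FPKM in the RNA-seq of OPC cultures 1 and 2, and the OPC footprints correspond to about 15.5 and 9.37 such reads. In oligodendrocyte cultures 1 and 2 the RNA-seq level of S100a1 lay above that of 93.0% and 96.7% of all transcripts.

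**Figure D1:**
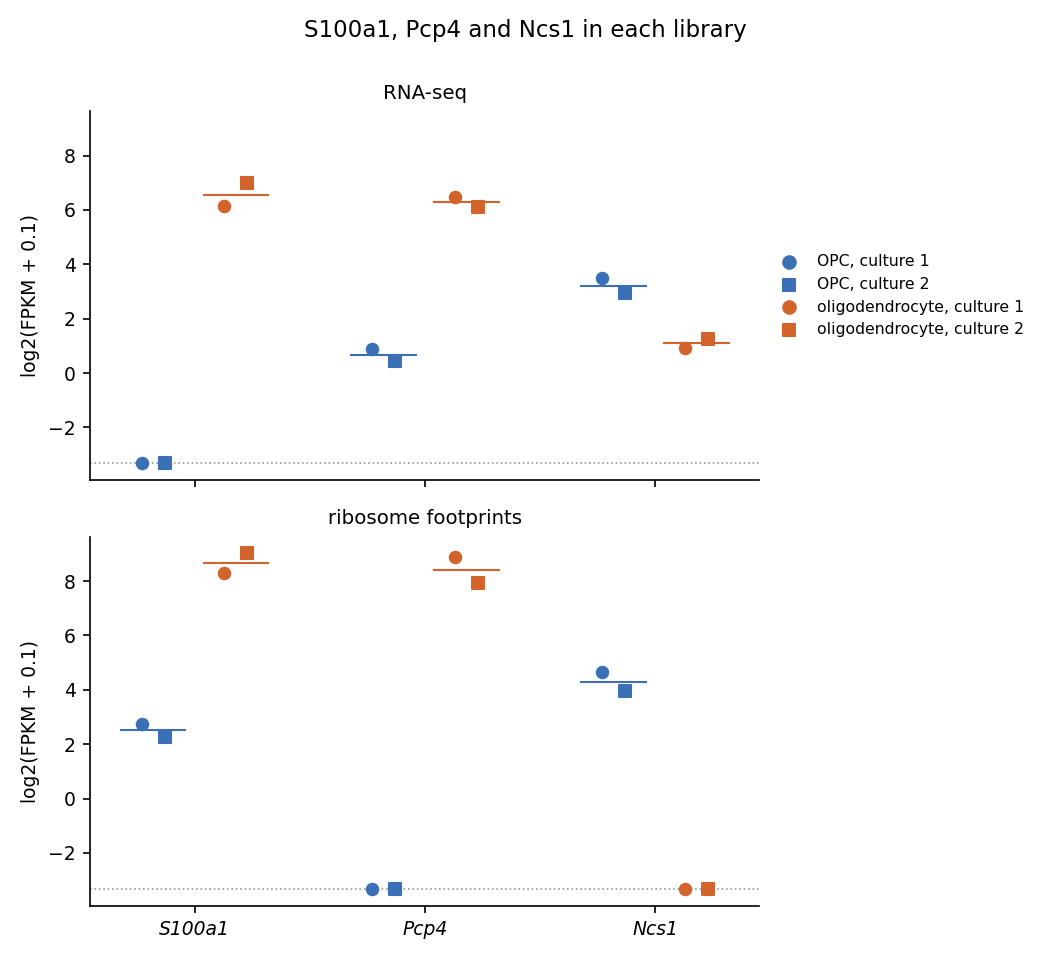
Levels of S100a1, Pcp4 and Ncs1 as log2(FPKM + 0.1) in RNA-seq (top) and ribosome footprints (bottom), with OPCs in blue, oligodendrocytes in orange, culture 1 as circles and culture 2 as squares. Short lines are means of 2 cultures, drawn where neither is listed at 0, and the dotted line marks transcripts listed at 0. S100a1 and Pcp4 sit above 6 in both oligodendrocyte cultures in RNA-seq, and Ncs1 is higher in OPCs.

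Pcp4 followed the same course at a like level. In RNA-seq it stood at 1.77 and 1.28 FPKM in OPC cultures 1 and 2 and at 88.6 and 68.4 FPKM in oligodendrocyte cultures 1 and 2. In footprints it was listed at 0 in both OPC cultures and stood at 474 and 241 FPKM in oligodendrocytes. The zeros fell in footprints for Pcp4 where they fell in RNA-seq for S100a1. The RNA-seq means were 1.52 ± 0.35 FPKM (SD, n = 2) and 78.5 ± 14.3 FPKM, a 51.5-fold ratio, with 50.0 and 53.6 in the pairs of cultures. On the log2(FPKM + 0.1) scale the difference was 5.60 ± 0.29 (SE), and it was 4.97 with a pseudocount of 1. The OPC values rest on about 9.13 and 4.53 reads of 30 bases, so they are known only roughly. A footprint read on the short CDS of Pcp4 is worth 0.637 and 0.766 FPKM in the OPC libraries.

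Ncs1 had the opposite direction. In RNA-seq it stood at 11.1 and 7.62 FPKM in OPC cultures 1 and 2 and at 1.82 and 2.27 FPKM in oligodendrocyte cultures 1 and 2. In footprints it stood at 24.9 and 15.5 FPKM in OPCs and was listed at 0 in both oligodendrocyte cultures. The oligodendrocytes thus kept RNA-seq reads of a transcript without listed footprints. The RNA-seq means were 9.37 ± 2.48 FPKM (SD, n = 2) and 2.04 ± 0.32 FPKM, so OPCs were 4.59-fold higher, with 6.12 and 3.36 in the pairs. The difference was -2.13 ± 0.31 (SE) on the log2(FPKM + 0.1) scale and -1.75 with a pseudocount of 1. The oligodendrocyte RNA-seq values correspond to about 33.9 and 27.4 reads of 30 bases, spread over a transcript whose 3′ UTR is not counted in footprints. A footprint read on the CDS is worth 0.245 and 0.563 FPKM in the oligodendrocyte libraries.

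Each gene thus had 1 group in which RNA-seq and footprints parted, and this was set against other transcripts at a like level. Of 1238 transcripts with 3 to 10 FPKM of footprints in both OPC cultures, 5 (0.404%) were listed at 0 in both OPC RNA-seq libraries, S100a1 among them. Of 243 transcripts with 1 to 2 FPKM in both OPC RNA-seq libraries, 19 (7.82%) were listed at 0 in both OPC footprint libraries, Pcp4 among them. Of 652 transcripts with 1 to 3 FPKM in both oligodendrocyte RNA-seq libraries, 33 (5.06%) were listed at 0 in both footprint libraries, Ncs1 among them. With the CDS within a factor of 2 of the length of the gene in question, the shares were 1 of 28 for S100a1, 1 of 4 for Pcp4 and 20 of 171 (11.7%) for Ncs1, so no other transcript of like length shared the state of S100a1 or of Pcp4. The FPKM ranges and kinds of library differ between the 3 genes, so these shares are not ranked. Over all transcripts, 39 had footprints but no listed RNA-seq in both OPC cultures. Only Mag, S100a1 and Tmem163 were listed at 0 in both OPC RNA-seq libraries and above 50 FPKM in both oligodendrocyte ones. Pcp4 was 1 of 8 transcripts listed at 0 in OPC footprints and above 100 FPKM in both oligodendrocyte footprint libraries. Ncs1 was 1 of 11 above 10 FPKM in both OPC footprint libraries and listed at 0 in both oligodendrocyte ones. Each pattern and its FPKM limits were set with the values of the gene known. These shares and counts thus do not measure how rare the pattern of a gene is.

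Ribosome density (RD), the footprint FPKM over the RNA-seq FPKM of the same culture, could be formed where both were above 0. S100a1 had an RD of 4.53 and 4.05 in oligodendrocyte cultures 1 and 2, and Pcp4 an RD of 5.35 and 3.53. The median over transcripts with at least 1 FPKM in both kinds was 2.02 and 1.96, and S100a1 lay above 91.1% and 84.4% of them. Among transcripts with a CDS of up to 300 bases the median RD was 3.48 in each culture. Within this class S100a1 lay above 64.8% of 165 and 59.1% of 137 transcripts, and Pcp4 above 73.3% and 50.4%. Their RD was thus high among all transcripts and at or above the middle among short ones. Ncs1 had an RD of 2.24 and 2.03 in OPC cultures 1 and 2, against medians of 1.72 and 1.76 over all transcripts. For a CDS of 300 to 900 bases the medians were 2.77 and 2.66, and Ncs1 lay above 34.3% and 32.2% of this class. RD in the other cell type was not formed for any of the 3 genes, so its change could not be given.

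**Figure D2:**
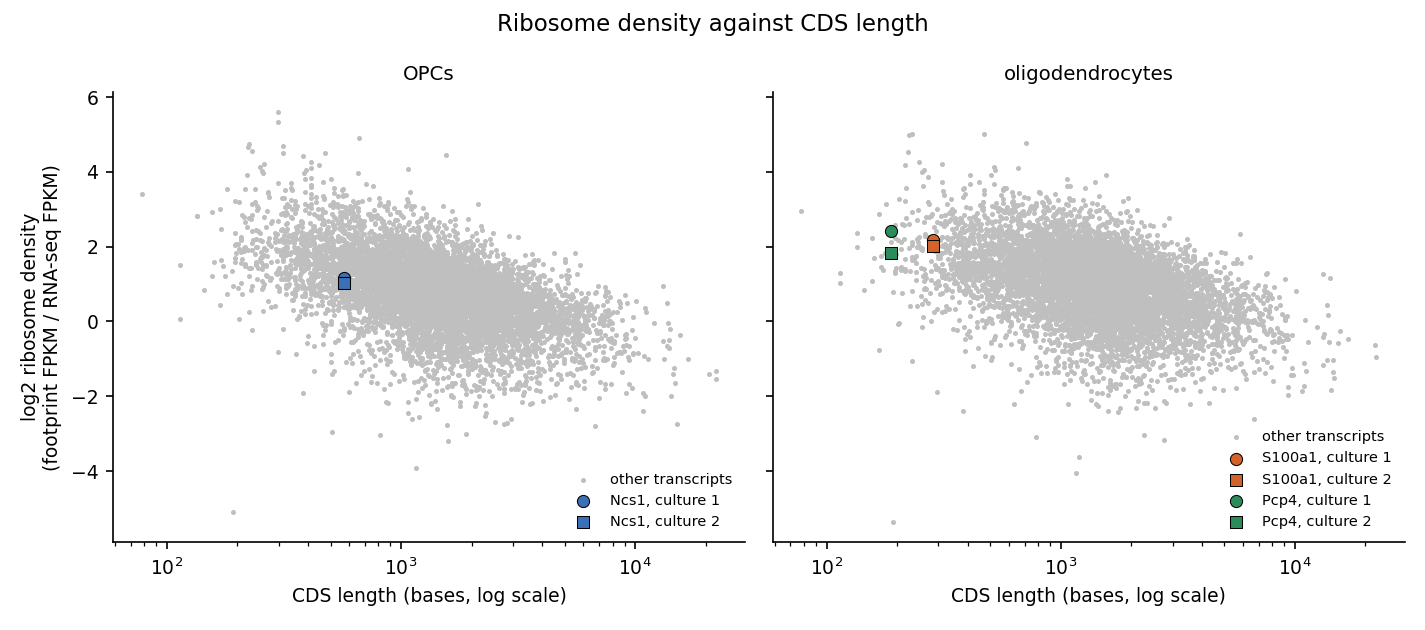
RD on a log2 scale against CDS length in bases on a log scale, for OPCs (left) and oligodendrocytes (right). Grey points are the means over 2 cultures of transcripts with at least 1 FPKM in every library of the cell type, and large symbols are S100a1, Pcp4 and Ncs1 in culture 1 (circles) and culture 2 (squares). S100a1 and Pcp4 lie at the short end, where RD is high for many transcripts.

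The study asked how decoding of the Phe codon UUU and the Lys codon AAA differs between OPCs and oligodendrocytes, so the use of these codons is given. S100a1 used UUU in 0 of 5 Phe codons and AAA in 3 of 10 Lys codons. Pcp4 used UUU in 1 of 3 and AAA in 4 of 8, and Ncs1 used UUU in 3 of 15 and AAA in 3 of 17. The median UUU share was 0.429 over 10928 transcripts and the median AAA share 0.368 over 10942. All 3 genes were below the median for UUU, and Pcp4 was above it for AAA. With so few codons in the short genes, a single codon moves a share by a large step.

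The 5 transcripts with the most similar pattern over the 8 libraries were found by the root-mean-square (RMS) difference of centred log2(FPKM + 0.1), among the 8056 transcripts averaging 1 FPKM or more in RNA-seq and in footprints. For S100a1 these included Cldn11, Neu4, Tnr and Rassf10, with RMS differences of 1.61 to 1.65. Cldn11, for the claudin of myelin tight junctions, stood at 0.518 and 1.88 FPKM in OPC RNA-seq and at 169 and 95.9 FPKM in oligodendrocytes. For Pcp4 they were Tspan2, Tmem88b, Cd82, Adam11 and Sema3e, at 0.32 to 1.20. Tspan2, a tetraspanin, was close to Pcp4 in almost every library, with 1.08 and 0.892 FPKM in OPC RNA-seq, 94.4 and 64.9 FPKM in oligodendrocyte RNA-seq, no listed footprints in OPCs, and 281 and 250 FPKM of footprints in oligodendrocytes. For Ncs1 they were Rhoj, Mdfic, Arhgap26, Hectd2 and Nkain3, at 0.48 to 0.76. All 5 were listed at 0 in both oligodendrocyte footprint libraries, like Ncs1 itself. The search favours transcripts listed at 0 where the gene is, so the shared zeros of Pcp4 and Ncs1 are not a separate result. The median transcript differed by 4.56 from S100a1, 4.81 from Pcp4 and 3.08 from Ncs1.

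Other genes of calcium binding and transport were read from 8 lists, none of which includes the 3 genes. Each fit ran over the whole series with limma on log2(FPKM + 0.1), using transcripts that averaged 1 FPKM or more over its libraries, and adjusted p-values (Benjamini-Hochberg) were called under 0.05. In RNA-seq 11 of 72 tested list genes rose and 18 fell, against 13% risen and 20.2% fallen among all 8346 transcripts tested. These are 15.3% and 25% of the list genes. Among those that fell, Pcp4l1, Nrgn, Camk1g and Nucb2 were listed at 0 in both oligodendrocyte RNA-seq libraries. They passed the filter through the OPCs alone, and the size of their change depends on the pseudocount. With a minimum mean of 5 FPKM, 12 list genes rose and 14 fell in RNA-seq. In footprints 13 of 75 rose and 10 fell, or 17.3% and 13.3%, against 12.8% and 10.8% of 8342. The shares on the lists were near those of all transcripts. With each library divided by its median ratio, the RNA-seq split became 14 risen and 13 fallen, while the median of all transcripts moved from -0.23 to -0.05. The calls rest on both OPC cultures: without OPC culture 1 or 2 there were 8 and 7 RNA-seq calls and 0 footprint calls on the lists, with 1936 and 1927 of all transcripts at an unadjusted p under 0.05 in footprints. All transcripts moved in the same way, with 532 of 8303 and 364 of 8348 called in RNA-seq and 0 in footprints. Without oligodendrocyte culture 1 or 2 there were 37 and 8 footprint calls on the lists, beside 3442 of 8184 and 778 of 8422 over all transcripts. For RD, limma called 0 of 69 list genes, with 2 at an unadjusted p under 0.05 and 0.0124% of 8056 transcripts called (1 transcript, Dpm1, named after its value was seen). Without oligodendrocyte culture 1, 6 list genes were called for RD, beside 883 of 7910 transcripts in all.

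The S100 family shifted in both directions. Of 9 S100 genes listed beside S100a1, 7 were tested in RNA-seq, where 4 rose and 1 fell. In footprints 7 were tested, where 4 rose and 2 fell. These are 57.1% and 14.3% in RNA-seq, against 13% and 20.2% of all transcripts, and 57.1% and 28.6% in footprints, against 12.8% and 10.8%. With 7 genes these shares are rough. Over 6 genes the median change in RNA-seq was 3.60 on the log2 scale, counted for genes without a group listed at 0, against -0.23 for all transcripts. S100b, a glial calcium sensor of the oligodendrocyte lineage and astrocytes, stood at 20.6 and 12.6 FPKM in OPC RNA-seq and at 675 and 633 FPKM in oligodendrocytes. Its log2 fold change was 5.33 ± 0.25 (SE, limma adjusted p = 0.000334), and 4.94 ± 0.33 in footprints (limma adjusted p = 0.00524). S100a16 rose by 5.12 ± 0.25 in RNA-seq (limma adjusted p = 0.000376). S100a13, the head-to-head neighbour of S100a1 and a factor in the export of fibroblast growth factor 1, stood at 4.44 FPKM and listed at 0 in OPC RNA-seq and at 48.7 and 56.3 FPKM in oligodendrocytes. Its RNA-seq call (limma adjusted p = 0.0332) was lost with a pseudocount of 0.01 (limma adjusted p = 0.0784), and its footprints rose by 4.04 ± 0.54 (limma adjusted p = 0.0156). S100a4 was the other riser in RNA-seq and S100a6 in footprints.

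S100a10, the partner of annexin A2, was the gene that fell in RNA-seq, and it is named after its value was seen. It went from 351 and 323 FPKM in OPCs to 56.1 and 35.6 FPKM in oligodendrocytes. This is -2.91 ± 0.24 on the log2 scale (limma adjusted p = 0.00119). It fell in footprints too, as did S100a11 (-2.27 ± 0.27, limma adjusted p = 0.0128). The leading gene of the family differed between the cell types. S100a10 took 88.4% and 92.6% of the summed FPKM of the 10 S100 genes in OPC RNA-seq, and S100b took 68.7% and 63.1% in oligodendrocytes. S100a1 took 7.11% and 12.7% of the sum in oligodendrocyte RNA-seq and 9.79% and 17.4% in footprints, where it ranked second after S100b in both cultures. Of the 10 genes, 9 lie on chromosome 3 within 3053610 bases and S100b lies on chromosome 10. The genes that rose and those that fell were both found within the chromosome 3 group.

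**Figure D3:**
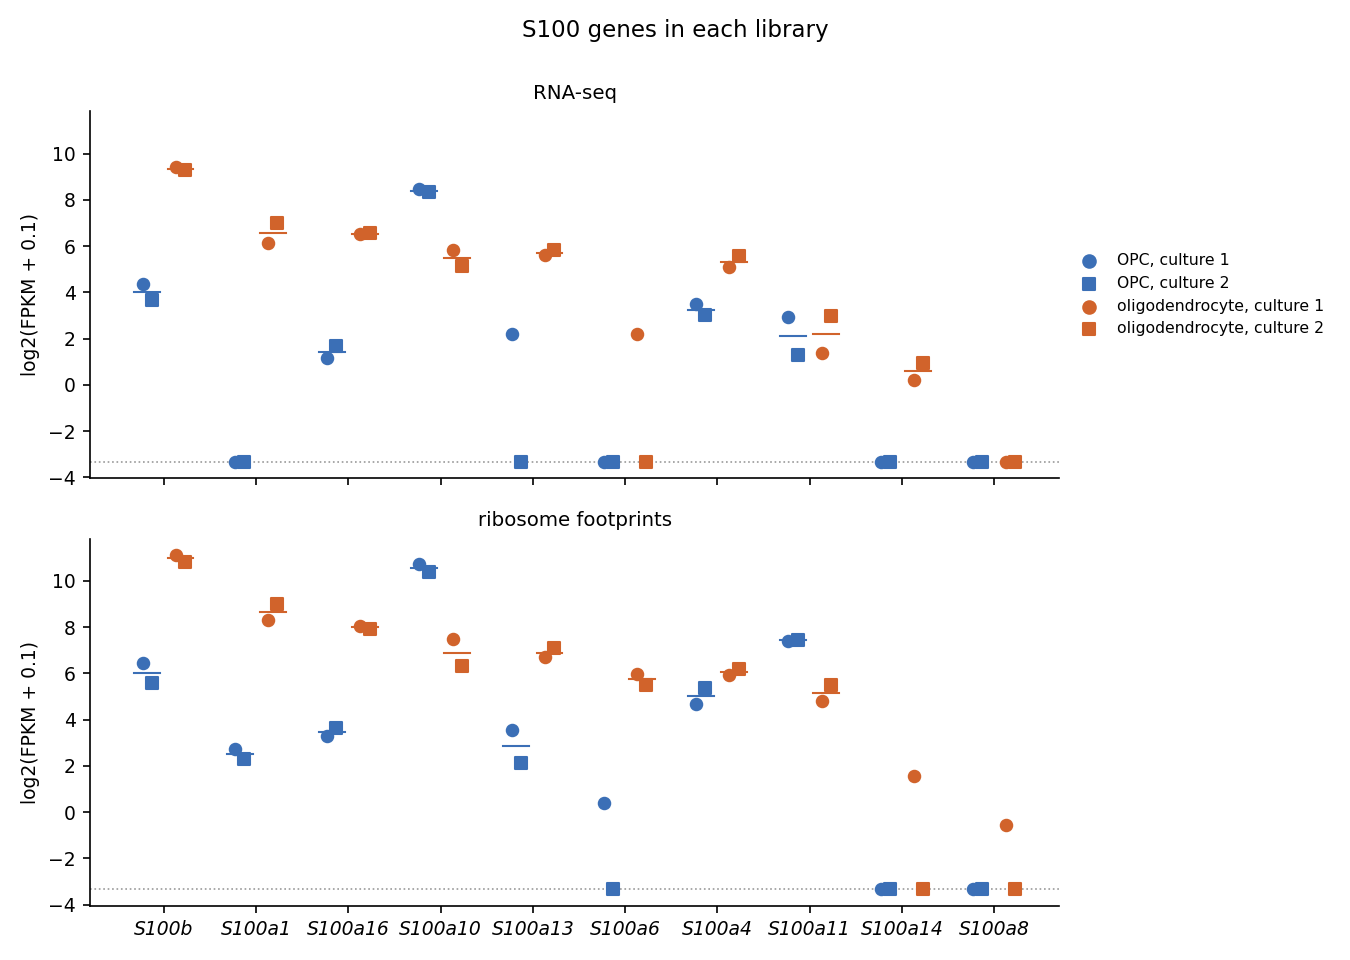
Levels of the 10 S100 genes as log2(FPKM + 0.1) in RNA-seq (top) and footprints (bottom), ordered by footprints in oligodendrocyte culture 1. Colours, symbols, lines and the dotted line are as for the plot of S100a1, Pcp4 and Ncs1. S100a10 is the highest gene in OPCs and S100b in oligodendrocytes, with S100a1 second in oligodendrocyte footprints.

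Few relatives of Ncs1 were high enough to test. Of 7 other neuronal calcium sensor genes in the table, 3 were tested in RNA-seq, where 2 rose and 0 fell, with 2 at an unadjusted p under 0.05. In footprints 4 were tested, where 3 rose and 0 fell, with 3 at an unadjusted p under 0.05. Among all transcripts 20.2% and 10.8% fell, and 3 and 4 genes are too few to be set against these shares. Ncald (neurocalcin delta) went from 53.1 and 63.9 FPKM to 86.2 and 114 FPKM, up by 0.77 ± 0.20 on the log2 scale (limma adjusted p = 0.0341). Kcnip3, a sensor that binds potassium channels and DNA, rose by 0.88 ± 0.20 (limma adjusted p = 0.024), and both rose in footprints as well. The footprint call of Ncald was lost under median-ratio scaling (limma adjusted p = 0.0592). Without the variance trend neither Ncald nor Kcnip3 was called in either kind. Kcnip2 was the third to rise in footprints, where it was listed at 0 in OPCs and stood at 6.52 and 9.21 FPKM in oligodendrocytes. Of 4 genes for proteins that Ncs1 binds, 3 were tested. Pi4kb, the phosphatidylinositol 4-kinase, stood at 17.6 and 16.7 FPKM in OPC RNA-seq and at 23.4 and 19.5 FPKM in oligodendrocytes. Ric8a, a guanine nucleotide exchange factor, stood at 16.6 and 13.5 FPKM and at 17.3 and 15.2 FPKM. Grk2, a kinase of G protein-coupled receptors, fell by 0.83 on the log2 scale (SE 0.21, limma adjusted p = 0.0326), a call that was lost under median-ratio scaling (limma adjusted p = 0.0832).

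Among 9 tested genes for calmodulin and its small binding proteins, 1 rose and 4 fell in RNA-seq, and 1 rose and 3 fell in footprints. These are 11.1% and 44.4%, against 13% and 20.2% of all transcripts, and 11.1% and 33.3%, against 12.8% and 10.8%. With 9 genes these shares are rough. Pcp4l1, the paralogue of Pcp4, had the opposite direction. It stood at 11.5 and 5.63 FPKM in RNA-seq of OPCs and was listed at 0 in both oligodendrocyte cultures. In footprints Pcp4l1 stood at 78.2 and 10.96 FPKM in OPCs and was again listed at 0 in oligodendrocytes. It was called as fallen in both kinds. No p-value is given where both cultures are listed at 0, because such values show no spread. Nrgn (neurogranin), which also holds calmodulin through an IQ motif, went from 1.60 and 5.47 FPKM to listed at 0 in RNA-seq, where it was called as fallen. Gap43, a growth cone protein of the same group, fell by 1.25 in RNA-seq (SE 0.25, limma adjusted p = 0.0143). The riser was Marcks, a membrane protein that calmodulin releases, named after its value was seen. Calm2, for calmodulin itself, stood at 195 and 301 FPKM in OPC RNA-seq and at 122 and 162 FPKM in oligodendrocytes (limma adjusted p = 0.0638, or 0.00448 with a replicate block). Its footprints fell by 1.13 (SE 0.11, limma adjusted p = 0.0084). Calm3 fell by 0.57 in RNA-seq (SE 0.14, limma adjusted p = 0.0294), a call lost under median-ratio scaling (limma adjusted p = 0.122), and in footprints it stood at 440 and 417 FPKM against 430 and 330 FPKM.

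Among 16 tested genes on the list of calmodulin-dependent kinases and phosphatase, 0 rose and 4 fell in RNA-seq, with 6 at an unadjusted p under 0.05. The tested genes include some that are neither kinases nor phosphatase subunits. These are Rcan3, Nfatc1 and Nfat5 in both kinds, Adcy1 in RNA-seq, and Pde1c and Adcy3 in footprints. The 25% of the list that fell in RNA-seq compare with 20.2% of all transcripts. In footprints 1 rose, which was Ppp3ca (0.79 ± 0.11, limma adjusted p = 0.0157, named after its value was seen), and 1 fell. These are 6.25% each way, against 12.8% risen and 10.8% fallen among all transcripts. Camk2b went from 34.6 and 32.3 FPKM in OPCs to 1.57 and 1.67 FPKM in oligodendrocytes. It fell by 4.29 on the log2 scale (SE 0.25, limma adjusted p = 0.000532), and its footprints fell by 4.16. Camk1g went from 4.42 and 3.68 FPKM to listed at 0, and Camkk2, a kinase that activates other calmodulin kinases, fell by 1.37 (SE 0.24, limma adjusted p = 0.00956). Ppp3cb was the fourth to fall. Of these 4 genes, Camk2b was the one that also fell in footprints. Footprints of Camk1g stood at 13.2 and 15.1 FPKM in OPCs and at 2.23 FPKM and listed at 0 in oligodendrocytes (limma adjusted p = 0.12). The footprint differences were -1.25 ± 0.42 for Camkk2 (limma adjusted p = 0.112) and 0.08 ± 0.25 for Ppp3cb (limma adjusted p = 0.843). Of 18 tested genes of calcium stores, pumps and exchangers, 3 rose and 3 fell in RNA-seq. Of 17 tested in footprints 2 rose and 2 fell. These are 16.7% each way in RNA-seq, against 13% and 20.2% of all transcripts. In footprints they are 11.8% each way, against 12.8% and 10.8%, so the shares were near those of all transcripts. The receptors for inositol trisphosphate, which release calcium from the endoplasmic reticulum, changed in opposite directions. Itpr1 went from 9.10 and 9.89 FPKM to 0.465 and 0.211 FPKM and Itpr2 from 2.22 and 0.733 FPKM to 29.2 and 33.6 FPKM. Their RNA-seq log2 fold changes were -4.52 ± 0.53 and 4.50 ± 0.51 (limma adjusted p = 0.00315 and 0.00293). Both also passed in footprints, though with a replicate block Itpr1 did not (limma adjusted p = 0.0802). Slc24a3, a sodium, calcium and potassium exchanger, rose by 2.71 ± 0.40 in RNA-seq (limma adjusted p = 0.00587). In footprints it rose by 2.43 ± 0.39 (limma adjusted p = 0.0224, or 0.0528 with a replicate block).

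**Figure D4:**
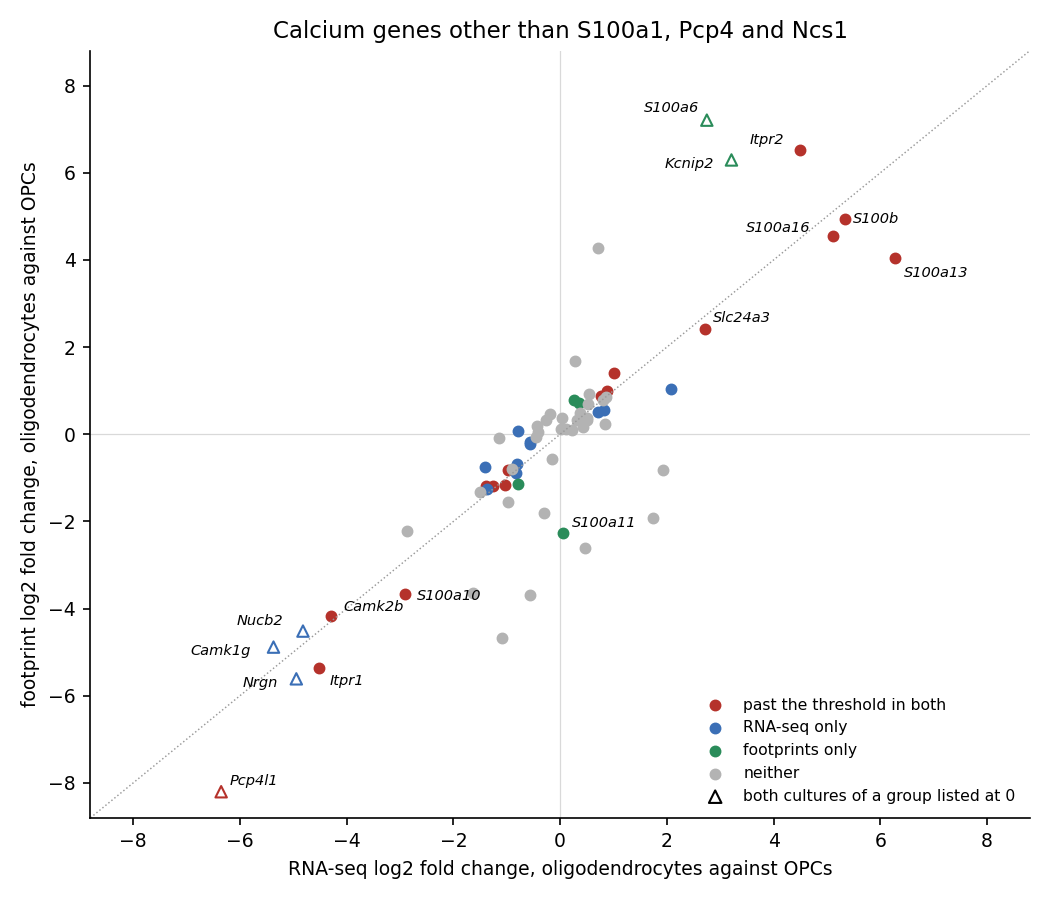
RNA-seq log2 fold change (horizontal) against footprint log2 fold change (vertical), oligodendrocytes against OPCs, for 69 listed calcium genes tested in both kinds. Colours give the calls and open triangles mark the 6 genes with both cultures of a group listed at 0, whose distance from 0 depends on the pseudocount. The 16 genes past the threshold in both kinds all changed in the same direction in both.

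Of 13 other EF-hand genes tested, 1 rose and 4 fell in RNA-seq, and of 15 tested in footprints 1 rose and 1 fell. The 30.8% that fell in RNA-seq compare with 20.2% of all transcripts. The 6.67% each way in footprints compare with 12.8% risen and 10.8% fallen. Cetn2 (centrin 2) fell by 1.40 (SE 0.19, limma adjusted p = 0.00508) and Rcn1 (reticulocalbin 1) by 1.04 (SE 0.17, limma adjusted p = 0.00779). Nucb2 (nucleobindin 2) went from 2.80 and 2.64 FPKM to listed at 0. Rcn1 fell in footprints too, while Cetn2 (limma adjusted p = 0.0694) and Nucb2 (limma adjusted p = 0.0866) did not pass there. Of 3 annexins tested, 0 rose and 1 fell in RNA-seq, which was Anxa6 (-0.97 ± 0.17, limma adjusted p = 0.00918), with 2 at an unadjusted p under 0.05. Of 4 tested in footprints, Anxa6 fell and Anxa11 rose. These annexins are too few to be set against the shares of all transcripts. Anxa11, named after its value was seen, went from 0.311 and 0.393 FPKM of footprints in OPCs to 12.4 and 6.49 FPKM in oligodendrocytes (limma adjusted p = 0.0278).

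S100a1, Pcp4 and Ncs1 are also expressed outside the oligodendrocyte lineage, so marker genes of other cells are given beside them. The 12 listed neuron markers summed to 143 and 127 FPKM in OPC RNA-seq and to 198 and 219 FPKM in oligodendrocytes. Of 11 tested, Tubb3 and Dcx rose, or 18.2% against 13% of all transcripts. Rbfox3 stood at no more than 1.32 FPKM in any RNA-seq library. It was the only listed neuron marker at 0 in every footprint library. The highest of them, Map2, had 218 to 285 FPKM of footprints. The 6 astrocyte markers summed to 313 and 243 FPKM in the OPC cultures and to 392 and 307 FPKM in the others. Most of this sum was Aldoc, at 159 to 235 FPKM, which was not called. Of these 6, Gfap and Slc1a2 rose, or 33.3% against the same 13%. In footprints Slc1a2 alone rose, or 16.7% against 12.8%, and Gfap stood at 28.0 FPKM and listed at 0 in oligodendrocyte cultures 1 and 2. Gfap stood at 14.2 FPKM in oligodendrocyte culture 1 and 2.11 FPKM in culture 2, while S100a1 was higher and Pcp4 lower in culture 2. The 2 listed microglia markers summed to at most 0.209 FPKM in RNA-seq. The part of these cells in the levels of S100a1, Pcp4 and Ncs1 was not tested.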

How the data were processed

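Footprints and total RNA came from 2 cultures each of OPCs and oligodendrocytes. The authors deposited FPKM for 10987 transcripts, made by mapping to GRCm38 with HISAT2 2.1.0 and tabulating with StringTie 1.3.5 and ballgown on canonical transcripts of Gencode vM9 (CDS for footprints). Counts were not used here. All 10987 identifiers were found in Gencode vM21, which gave positions and sequences. Libraries were grouped by their titles.

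FPKM were used as deposited. Transcripts were tested with limma 3.58.1 in R 4.3.3 (eBayes, variance trend, two-sided) on log2(FPKM + 0.1) with a minimum mean of 1 FPKM, separately for RNA-seq and footprints. The RD change was tested as a cell-by-kind interaction in a fit of all 8 libraries. Benjamini-Hochberg adjusted p under 0.05 was called. The fits were tested on simulated data. With 2 cultures a group, an exact permutation test cannot give a two-sided p below 0.333 and none was run. Depth was estimated from steps of FPKM multiplied by length, taking reads of 30 bases, and covers counting error only. It can be off by a whole factor.

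The 3 genes and the lists were chosen with earlier results of these data known. List genes are named by a rule: up to 3 per list with the largest RNA-seq fold change among those called and moving alike in both pairs of cultures, plus Calm2, Calm3, S100b, the 5 most similar transcripts per gene and cell markers. Some genes that the rule or lists would name are not reported here. Others are said to be named after their values were seen, or stand as the remainder of a count. Per the study's methods the oligodendrocytes came from the OPC replicates. That cultures of the same number form a pair was assumed from the titles. The main fits did not use this pairing, and the replicate block did. Deviations of paired cultures from their group means correlated at 0.108 in RNA-seq and 0.086 in footprints. Alternatives were other pseudocounts, filters, scaling, no trend, the replicate block and leaving out each culture.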

Additional observations from a re-analysis of the deposited data

How the results depend on the processing

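Without OPC replicate 1 or 2 or oligodendrocyte (OL) replicate 1 or 2, the calls among listed calcium genes ranged from 7 to 24 in RNA-seq, from 0 to 37 in footprints and from 0 to 6 for RD, against 29, 23 and 0. Without the variance trend they were 19 and 14 in RNA-seq and footprints. With a replicate block they were 35, 21 and 0, and among the named genes the block changed the calls of Calm2 in RNA-seq and of Itpr1 and Slc24a3 in footprints and no other. The pseudocount, filter and scaling alternatives kept each count within 1.5 times. With a pseudocount of 1 the log2 difference became 4.97 for Pcp4 and -1.75 for Ncs1 in RNA-seq. Leaving out a culture gave 5.80 to 6.51 for S100a1 footprints, 5.38 to 5.82 for Pcp4 RNA-seq and -2.40 to -1.86 for Ncs1 RNA-seq. Of 451 alternative values for 21 named genes in each kind, 350 stayed on their side of the threshold, 91 fell short of it (72 of them with a culture left out) and 9 newly passed. Calm3 footprints alone turned, with values from -0.38 to 0.0071 when a culture was left out (the latter without OL replicate 2, limma adjusted p = 0.964). Where a culture was left out, the lone culture of its group was assumed to vary like the other group. No fold or RD change was formed for S100a1 RNA-seq or for Pcp4 and Ncs1 footprints, because a group was listed at 0. Depth limits values near 1 FPKM, which rest on few reads.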

Other observations

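The oligodendrocyte cultures differed from each other in S100a1 and Pcp4, in opposite directions. S100a1 was higher in culture 2 by 0.87 in RNA-seq and 0.71 in footprints on the log2 scale, and Pcp4 was lower in culture 2 by values of -0.37 and -0.98. Among 906 transcripts with an RNA-seq mean within a factor of 2 of that of S100a1, the central 95% of these differences ran from -0.62 to 0.46. For footprints like those of S100a1 the range over 592 transcripts was -0.67 to 0.45. Among 654 transcripts with footprints like those of Pcp4 it ran from -0.68 to 0.45. The RNA-seq and footprint values of S100a1 and the footprints of Pcp4 thus fell outside the range of transcripts at a like level, and the RNA-seq value of Pcp4 fell within it. These transcripts were matched on FPKM alone. At a like FPKM a short transcript rests on fewer reads, about 141 for Pcp4 footprints in oligodendrocyte culture 2. Whether the values are unusual for transcripts of like length was not tested. No test was made with 2 cultures. In OPCs, Ncs1 was lower in culture 2 by -0.55 in RNA-seq and -0.69 in footprints, within the ranges for its levels.

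S100a6 and S100a11 also had footprints with little or no listed RNA-seq. S100a6, which binds annexins and other targets, was listed at 0 in both OPC RNA-seq libraries and in that of oligodendrocyte culture 2, and stood at 62.1 and 45.7 FPKM in oligodendrocyte footprints. S100a11 stood at 7.62 and 2.35 FPKM in OPC RNA-seq and at 169 and 174 FPKM in OPC footprints. Both were noticed after their values were seen.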
